A study of Mus musculus with 8 samples.

Results

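Ribosome biogenesis factors are the proteins that make and fold ribosomal RNA and assemble it into subunits, and they are described here in mouse kidneys as a list of 47 genes. The genes were listed by name, with earlier results of these arrays known, and were found on the array through the RefSeq accession of each probe. No probe matched Nop56, so 46 of the 47 genes were measured, among 20581 genes tested in all. Where several probes matched a gene, the one with the highest mean signal over the 8 arrays stood for it. That mean level is the measured value the choice of probes used. The results that led to the listing of these genes are not stated, so the counts below are descriptions of the list, set beside the share of all genes tested.

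Making a ribosome begins in the nucleolus, where RNA polymerase I transcribes a long precursor RNA. Small nucleolar ribonucleoproteins (snoRNPs) methylate and pseudouridylate that precursor, and a large scaffold called the small-subunit processome folds and cleaves it. A separate set of factors builds the large subunit, and both particles are then exported to the cytoplasm and finished there. The process consumes much of a growing cell's energy, and MYC, a transcription factor that acts with its partner MAX, is known to raise many of its genes.

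The 4 groups held 2 arrays each. They were Keap1 knockdown (KD) kidneys after ischemia-reperfusion injury (IRI), wild-type (WT) kidneys after IRI, KD kidneys without injury (normal), and WT kidneys without injury. All came from male mice of 16 weeks. In the IRI groups the vessels of the left kidney were clamped for 45 minutes, the right kidney was left unclamped, and tissue was taken at day 1. Normal kidneys were left kidneys that had no IRI. KEAP1 is the adaptor that marks the transcription factor NRF2 for degradation. The labels do not say how the knockdown was made or in which cells it acts, nor whether the 2 arrays of a group came from separate animals, so p-values measure the spread between these arrays, which may be technical.

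Keap1 itself was at 1.33 and 1.04 in KD IRI, 2.66 and 2.50 in WT IRI, 1.50 and 1.40 in KD normal, and 2.75 and 2.66 in WT normal kidneys. These levels, like all below, are log2 signals relative to the 75th percentile of the array. Between 62.1% and 67.8% of spots were well above background on an array, and no spot was saturated. All 9 markers of kidney tubule and glomerulus were measured, and their summed scaled signal was 265.2 to 296.6 in KD IRI, 288.2 to 350.1 in WT IRI, 611.2 to 630.6 in KD normal and 639.8 to 643.2 in WT normal kidneys. The 9 measured markers of dividing cells summed to 52.7 and 60.3 in KD IRI, 31.2 and 20.1 in WT IRI, 6.08 and 6.40 in KD normal and 6.69 and 7.15 in WT normal kidneys. The 7 measured neutrophil markers summed to 52.8 and 58.8 in KD IRI, 49.1 and 105.3 in WT IRI, 0.779 and 6.23 in KD normal and 0.312 and 0.313 in WT normal kidneys. In whole kidneys, more RNA per cell and more cells of a type that makes it cannot be told apart.

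The median of the ribosome biogenesis transcripts formed a staircase over the 4 groups, an order that not every member followed. The median member stood 0.50 and 0.51 above its own mean over the 8 arrays in KD IRI kidneys, and 0.06 and 0.08 above it in WT IRI kidneys. In KD normal kidneys it stood at -0.06 and -0.19, and in WT normal kidneys at -0.43 and -0.44. Both KD IRI arrays were the highest of the 8 for 42 of the 46 members, an order that 18% of all genes tested showed. The 4 exceptions were Nop10, Rrp1, Rrp36 and Utp20. Both WT normal arrays were the lowest of the 8 for 31 members, against 12.2% of all genes. Group means stepped down from KD IRI through WT IRI and KD normal to WT normal for 32 members, against 10.6% of all genes. These orders were not tested.

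**Figure D1:**
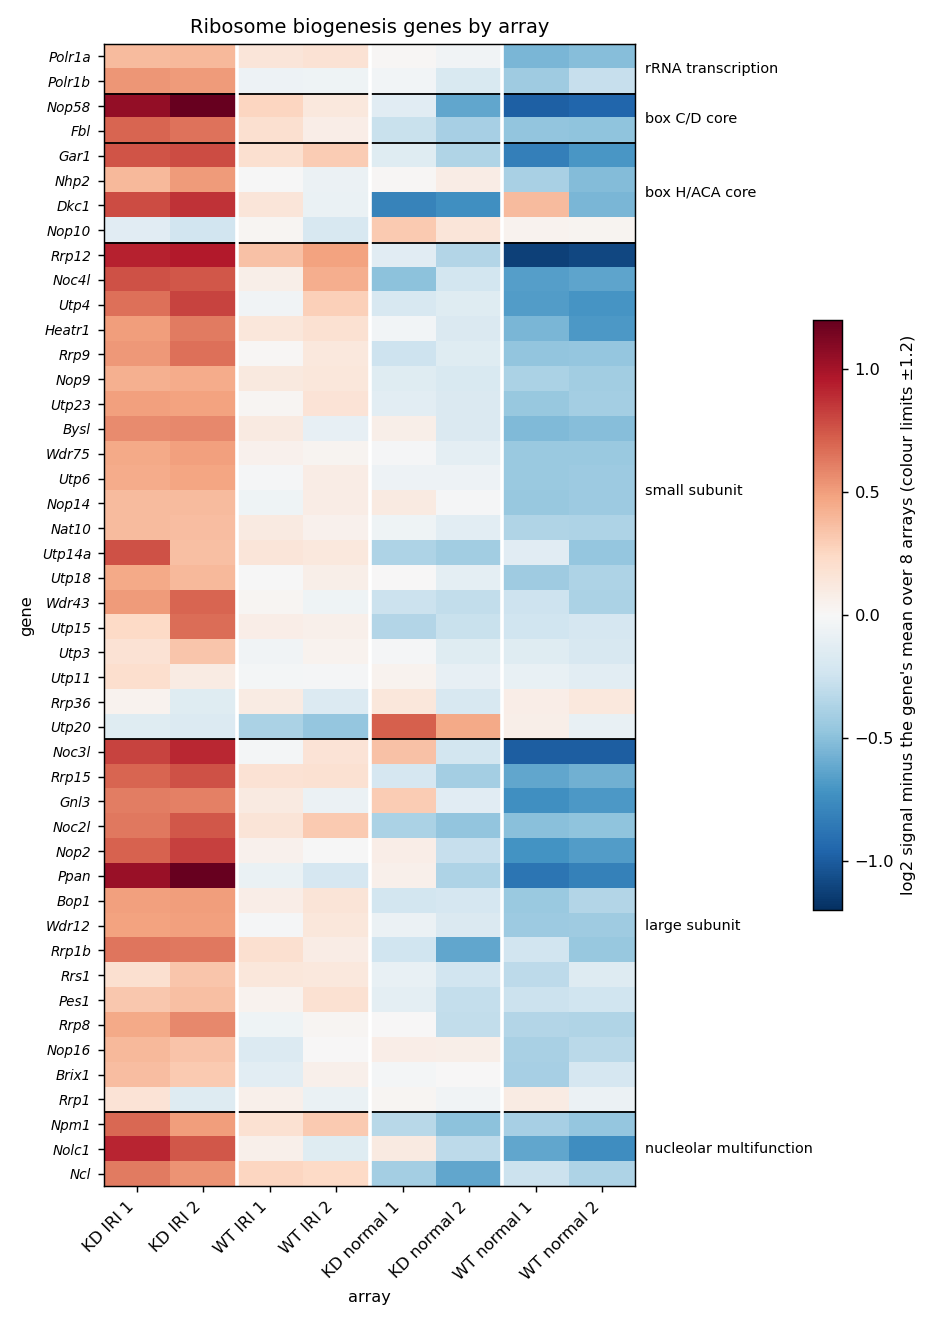
Log2 signal of 46 ribosome biogenesis genes (down the page, grouped by role and sorted by their change in WT IRI against WT normal) on the 8 arrays (from left to right), minus the mean of each gene over the 8 arrays. Both KD IRI columns are the highest for 42 of the 46 genes, and Nop10, Rrp1, Rrp36 and Utp20 stand out from that pattern.

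As a description only, the promoter windows of the members were read for the letters of 2 motifs, on both strands. Windows of 300 bases, from 250 bases before the RefSeq start to 50 after it, were given for 39 of the 47 listed genes (RefSeq, build GRCm38.p6). The E-box CACGTG, the site of MYC with MAX, was in the windows of 6 of the 39 (15.4%), against 8.09% of 27025 genes with a window and 11.3% of the 11255 of those that were tested on the array. The core of the antioxidant response element (ARE), TGACNNNGC, the site of NRF2 with a small MAF protein, was in 3 of the 39 (7.69%), against 14.0% and 16.5%. The E-box genes were Nop2, Pes1, Utp4, Utp18, Utp20 and Wdr43, and the ARE genes were Bysl, Gar1 and Utp18. A match describes letters in a window and is not evidence of binding. The windows of 5 genes are printed 5′ to 3′ on the strand of the gene, with the motif in capitals. The ARE core reads GCNNNGTCA where it lies on the opposite strand. These 5 were chosen because Utp18 held both motifs, Gar1 held the ARE core in 2 places, Nop2 and Wdr43 held an E-box on either side of the start, and Utp20, which held an E-box, went against the other members after injury. The 2 motifs did not overlap.
Utp18 (chr11:93885717-93886016, minus strand, ARE core from -43 and E-box from -20): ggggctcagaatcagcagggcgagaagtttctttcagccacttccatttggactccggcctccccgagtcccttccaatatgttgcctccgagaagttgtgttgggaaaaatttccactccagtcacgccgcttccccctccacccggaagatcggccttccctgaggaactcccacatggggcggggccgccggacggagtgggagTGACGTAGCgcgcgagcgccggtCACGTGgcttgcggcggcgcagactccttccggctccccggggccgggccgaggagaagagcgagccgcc
Gar1 (chr3:129831347-129831646, minus strand, ARE core from -201 and from -164): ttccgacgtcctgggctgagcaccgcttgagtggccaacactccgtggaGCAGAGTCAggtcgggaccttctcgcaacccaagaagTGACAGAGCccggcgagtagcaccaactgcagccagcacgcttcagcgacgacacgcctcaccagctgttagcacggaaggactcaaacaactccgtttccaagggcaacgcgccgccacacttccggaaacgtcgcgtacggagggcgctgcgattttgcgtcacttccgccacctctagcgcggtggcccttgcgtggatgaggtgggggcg
Nop2 (chr6:125131633-125131932, plus strand, E-box from -60): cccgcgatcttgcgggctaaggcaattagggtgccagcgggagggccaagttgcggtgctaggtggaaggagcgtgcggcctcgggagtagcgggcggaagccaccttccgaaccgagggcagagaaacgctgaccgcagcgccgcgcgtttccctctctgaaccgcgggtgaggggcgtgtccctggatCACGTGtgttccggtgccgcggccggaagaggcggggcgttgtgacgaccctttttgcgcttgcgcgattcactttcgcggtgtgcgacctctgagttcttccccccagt
Wdr43 (chr17:71615965-71616264, plus strand, E-box from 18 bases into the transcript): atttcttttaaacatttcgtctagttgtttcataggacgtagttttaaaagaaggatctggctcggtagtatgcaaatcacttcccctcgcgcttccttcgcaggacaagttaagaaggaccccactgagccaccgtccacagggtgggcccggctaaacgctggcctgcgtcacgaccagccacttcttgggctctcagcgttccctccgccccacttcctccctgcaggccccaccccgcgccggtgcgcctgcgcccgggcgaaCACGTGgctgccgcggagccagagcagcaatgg
Utp20 (chr10:88826765-88827064, minus strand, E-box from 38 bases into the transcript): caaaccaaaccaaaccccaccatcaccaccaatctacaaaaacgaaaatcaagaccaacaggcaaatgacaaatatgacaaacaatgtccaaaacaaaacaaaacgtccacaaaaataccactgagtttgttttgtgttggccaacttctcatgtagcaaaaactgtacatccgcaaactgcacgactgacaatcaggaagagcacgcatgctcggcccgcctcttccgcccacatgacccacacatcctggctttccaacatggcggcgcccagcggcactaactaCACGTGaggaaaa

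Injury was compared first, within each genotype, to ask how these genes stood at day 1 after ischemia and reperfusion. In KD kidneys, KD IRI against KD normal, 41 of 46 members passed the threshold as higher, where 27.5% of all genes did, and 2 passed as lower, where 31.8% of all genes did, making 43 in either direction beside 59.3%. Their median log2 change was 0.65, beside -0.08 for all genes tested. The test was limma's moderated test, adjusted over all 20581 genes with a threshold of 0.05. Each slide held 1 array of every group, and within the slides the median change was 0.56 on slide 1 and 0.74 on slide 2. The KD IRI arrays lay above both KD normal arrays for 42 members, against 37.2% of all genes. Markers of dividing cells passed as higher for 9 of 9 and neutrophil markers for 6 of 7, and kidney markers as lower for 8 of 9. Their part in the change of the members was not tested.

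In WT kidneys, WT IRI against WT normal, 36 members passed as higher, where 20.6% of all genes did, and 1 as lower, where 25.2% of all genes did, making 37 in either direction beside 45.9%. The median change was 0.49, beside -0.08 for all genes, and it was 0.47 within slide 1 and 0.54 within slide 2. The WT IRI arrays lay above both WT normal arrays for 41 members, against 33.5% of all genes. The injury comparisons contrast different arrays, but both take each gene's spread from the fit over all arrays, so their calls are not independent. All 36 members that were higher in WT were also higher in KD. They were 36 of the 41 calls in KD and 36 of the 36 in WT, and 17.4% of all genes passed as higher in both. Dividing-cell markers passed as higher for 9 of 9 here too, neutrophil markers for 6 of 7, and kidney markers as lower for 6 of 9.

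**Figure D2:**
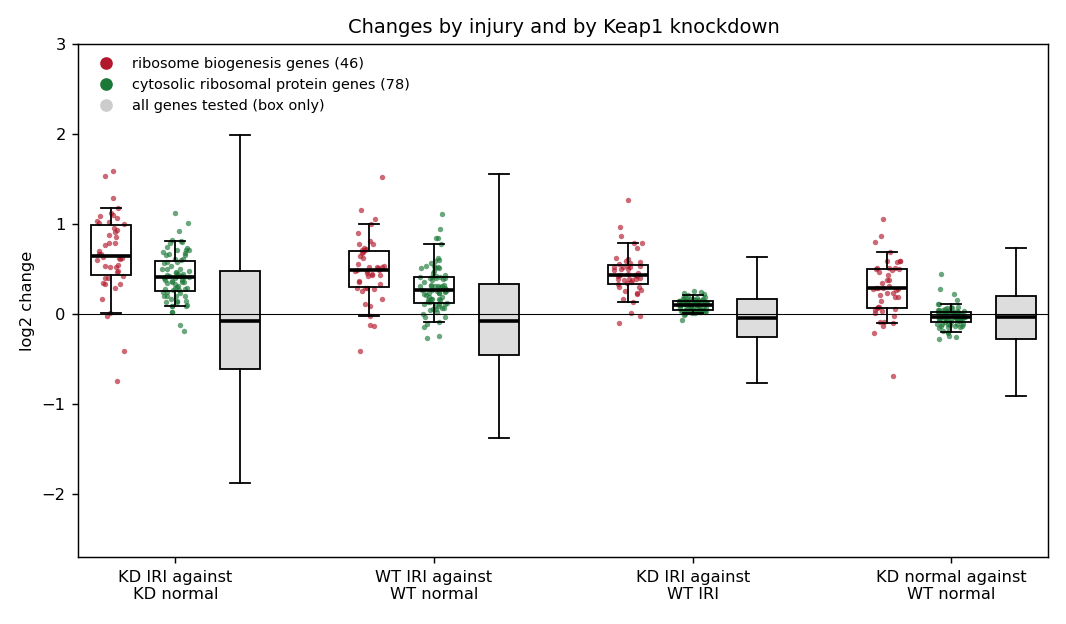
Log2 change of the 46 ribosome biogenesis genes, the 78 cytosolic ribosomal protein genes (1 point a gene) and all 20581 genes tested (box only) in 4 comparisons. Boxes span the quartiles with the median as a line and whiskers reach the 5th and 95th percentiles. Ribosome biogenesis medians are 0.65 for KD injury, 0.49 for WT injury, 0.43 for KD IRI against WT IRI and 0.29 for KD normal against WT normal, and ribosomal protein medians are 0.41, 0.27, 0.11 and -0.03.

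Both measured members that serve RNA polymerase I rose with injury in both genotypes. Polr1a, which encodes the largest subunit of the enzyme, was at 2.23 and 2.24 in KD IRI, 2.00 and 2.02 in WT IRI, 1.87 and 1.80 in KD normal, and 1.30 and 1.34 in WT normal kidneys. No 2 groups overlapped. Polr1a rose by 0.40 ± 0.07 (SE) with injury in KD (adjusted p = 0.00227) and by 0.69 in WT (adjusted p = 0.000425). Polr1b, the second-largest subunit, was at 0.48 and 0.47 in KD IRI, -0.10 and -0.09 in WT IRI, -0.08 and -0.23 in KD normal, and -0.47 and -0.31 in WT normal kidneys. The KD IRI arrays stood apart from the other 6, and the WT IRI arrays lay within the range of KD normal. Polr1b rose by 0.63 ± 0.10 in KD (adjusted p = 0.00122) and 0.29 in WT (adjusted p = 0.0404).

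Both measured core proteins of the box C/D snoRNPs, which guide ribose methylation of ribosomal RNA, rose in both genotypes. Nop58, a scaffold of that particle, was at 3.01 and 3.21 in KD IRI, 2.21 and 2.08 in WT IRI, 1.82 and 1.33 in KD normal, and 0.97 and 1.00 in WT normal kidneys. Its 4 groups did not overlap, and the KD normal arrays differed most between themselves. It rose 2.90-fold with injury in KD (log2 change 1.54 ± 0.16, adjusted p = 0.000232) and 2.23-fold in WT (1.16, adjusted p = 0.00148). Fbl, the methyltransferase fibrillarin, was at 5.48 and 5.44 in KD IRI, 4.98 and 4.87 in WT IRI, 4.52 and 4.39 in KD normal, and 4.31 and 4.30 in WT normal kidneys. Its injury change was 1.01 ± 0.08 in KD (adjusted p = 6.4e-05) and 0.62 in WT (adjusted p = 0.000907).

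The box H/ACA snoRNPs, which guide pseudouridylation and share their core proteins with telomerase, did not move as a block. Gar1 was at 0.68 and 0.70 in KD IRI, 0.11 and 0.23 in WT IRI, -0.22 and -0.44 in KD normal, and -0.89 and -0.78 in WT normal kidneys. It rose by 1.02 ± 0.10 in KD (adjusted p = 0.000213) and 1.00 in WT (adjusted p = 0.000501), nearly equal steps from different starting levels. Nhp2 was at 4.22 and 4.34 in KD IRI, 3.83 and 3.76 in WT IRI, 3.85 and 3.92 in KD normal, and 3.44 and 3.31 in WT normal kidneys, so that both uninjured KD arrays lay above both injured WT arrays. It rose by 0.40 with injury in KD and by 0.42 in WT.

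Nop10, the smallest core protein of the same particle, ran the other way. It was at 3.68 and 3.59 in KD IRI, 3.84 and 3.63 in WT IRI, 4.13 and 3.96 in KD normal, and 3.86 and 3.85 in WT normal kidneys. It fell by 0.41 ± 0.10 with injury in KD (adjusted p = 0.00911), and its change in WT was -0.12 (adjusted p = 0.337). The KD fall did not pass with quantile normalization (-0.10) or normexp background correction (-0.27), nor without KD IRI replicate 2 or KD normal replicate 1, where its adjusted p reached 0.0591. Dkc1, the pseudouridine synthase dyskerin, was at -1.20 and -1.12 in KD IRI, -1.84 and -2.06 in WT IRI, -2.78 and -2.71 in KD normal, and -1.60 and -2.53 in WT normal kidneys. Its WT normal arrays lay far apart and overlapped the WT IRI arrays. The change was 1.59 ± 0.27 in KD (adjusted p = 0.00222) and 0.12 in WT (adjusted p = 0.753), while its second probe gave 1.44 in KD and 0.59 in WT (adjusted p = 0.026 over all probes).

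**Figure D3:**
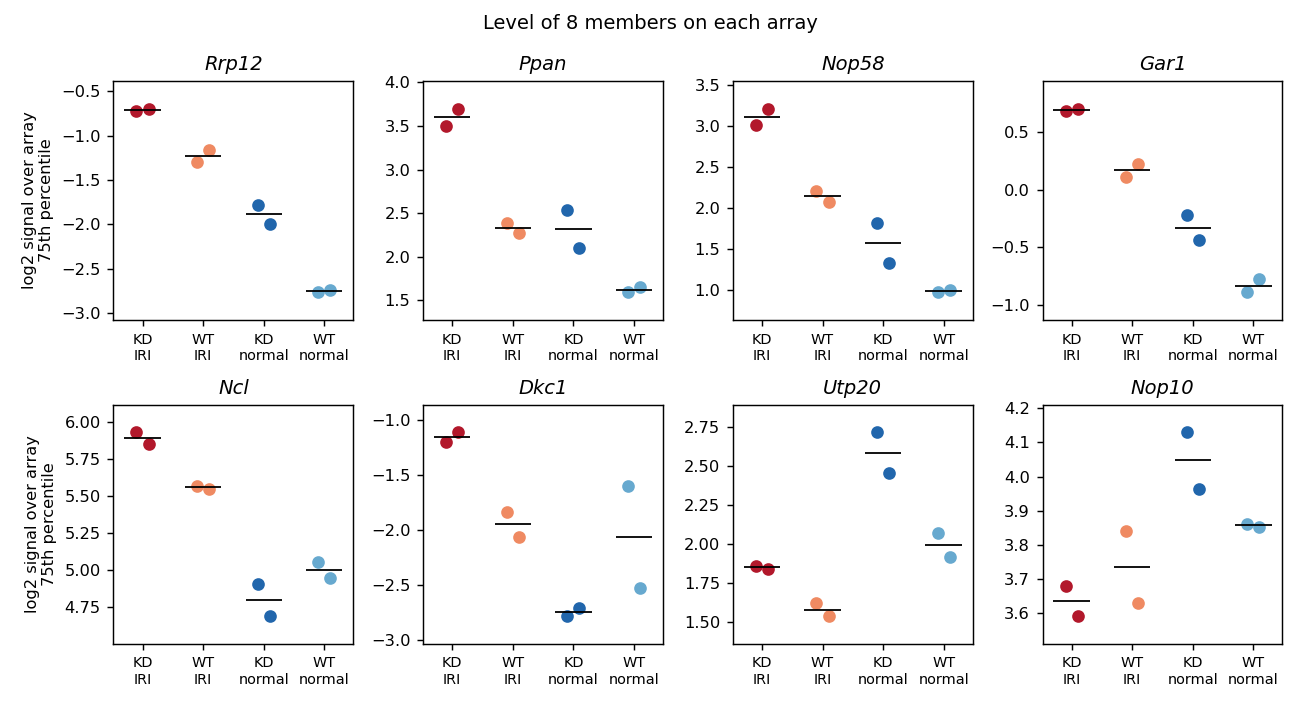
Log2 signal of 8 members relative to the array's 75th percentile, 1 panel a gene with its own axis, for KD IRI, WT IRI, KD normal and WT normal kidneys from left to right. Points are arrays and lines are means of 2 arrays. Rrp12, Nop58 and Gar1 step down over the 4 groups, while Utp20 and Nop10 are highest in KD normal kidneys.

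Of the 20 small-subunit members, 17 rose and 1 fell with injury in KD kidneys, and 14 rose and 1 fell in WT kidneys. The change in Rrp12, a factor needed to mature and export the pre-40S particle in yeast, was the largest of all members in WT. It was at -0.72 and -0.69 in KD IRI, -1.29 and -1.16 in WT IRI, -1.78 and -1.99 in KD normal, and -2.77 and -2.74 in WT normal kidneys. The 4 groups were separate, with gaps larger than the differences within any of them. Rrp12 rose 2.26-fold with injury in KD (log2 change 1.18 ± 0.11, adjusted p = 0.000156) and 2.88-fold in WT (1.53, adjusted p = 0.00016).

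Noc4l, a nucleolar partner of Nop14, was at 0.90 and 0.88 in KD IRI, 0.21 and 0.58 in WT IRI, -0.35 and -0.08 in KD normal, and -0.52 and -0.50 in WT normal kidneys. It rose by 1.11 ± 0.14 in KD and 0.90 in WT (adjusted p = 0.00265). Utp4, also called cirhin, belongs to the subcomplex that binds the precursor first. It was at 0.63 and 0.78 in KD IRI, -0.08 and 0.26 in WT IRI, -0.22 and -0.18 in KD normal, and -0.70 and -0.73 in WT normal kidneys. The change was 0.91 ± 0.12 in KD (adjusted p = 0.00078) and 0.81 in WT (adjusted p = 0.00223).

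The other members of Utp4's subcomplex were less even. Heatr1 was at 1.42 and 1.55 in KD IRI, 1.06 and 1.11 in WT IRI, 0.89 and 0.75 in KD normal, and 0.38 and 0.23 in WT normal kidneys. It rose by 0.66 in KD and 0.78 in WT, and its 4 groups did not overlap. Wdr75 was at 1.18 and 1.22 in KD IRI, 0.78 and 0.76 in WT IRI, 0.71 and 0.61 in KD normal, and 0.28 and 0.28 in WT normal kidneys, and it rose by 0.54 in KD and 0.49 in WT. Wdr43 rose by 0.88 in KD (adjusted p = 0.000335) and 0.29 in WT (adjusted p = 0.0478). Utp15 rose by 0.77 in KD, and its change in WT was 0.29 (adjusted p = 0.191). With normexp background correction the KD change of Utp15 was -0.10 (adjusted p = 0.898). Utp6 and Utp18 belong to a second subcomplex and rose by 0.52 and 0.48 in KD and by 0.48 and 0.43 in WT. Utp6 was at 0.55 and 0.58 in KD IRI, 0.09 and 0.20 in WT IRI, 0.05 and 0.05 in KD normal, and -0.34 and -0.33 in WT normal kidneys. Utp18 was at 0.48 and 0.42 in KD IRI, 0.02 and 0.10 in WT IRI, 0.03 and -0.09 in KD normal, and -0.40 and -0.35 in WT normal kidneys. For both genes the KD IRI arrays were the highest and the WT normal arrays the lowest, and the WT IRI and KD normal arrays lay close together. A second probe of Utp6 went the opposite way, at -0.33 in KD injury (adjusted p = 0.0609 over all probes) and -0.47 in WT injury (adjusted p = 0.0223), so the direction of Utp6 depends on the probe.

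Among the remaining small-subunit members, Rrp9, a protein of the U3 snoRNP, was at 0.20 and 0.34 in KD IRI, -0.31 and -0.20 in WT IRI, -0.58 and -0.47 in KD normal, and -0.80 and -0.79 in WT normal kidneys. It rose by 0.79 in KD and 0.54 in WT, and its 4 groups did not overlap. Nat10, the acetyltransferase of small-subunit RNA, rose by 0.47 in KD and 0.44 in WT. Bysl, which encodes bystin, a factor that matures the small subunit, was at 2.53 and 2.54 in KD IRI, 2.08 and 1.87 in WT IRI, 2.04 and 1.79 in KD normal, and 1.44 and 1.46 in WT normal kidneys. Nop14, a partner of Noc4l, was at 0.81 and 0.81 in KD IRI, 0.38 and 0.52 in WT IRI, 0.54 and 0.42 in KD normal, and -0.02 and -0.004 in WT normal kidneys. Bysl, Nop14, Utp23 and Nop9 rose by 0.33 to 0.63 in KD and by 0.46 to 0.53 in WT. Utp14a, an activator of a processome helicase in yeast, rose by 0.96 in KD, and its change in WT was 0.44 (adjusted p = 0.0839). Utp3 rose by 0.33 in KD, and its WT change was 0.16 (adjusted p = 0.164). Utp11 had changes of 0.17 in KD and 0.09 in WT and passed in neither. Rrp36 had changes of -0.02 in KD and -0.14 in WT (adjusted p = 0.897 and 0.459), with arrays that overlapped in both genotypes.

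Utp20, a very large processome scaffold, went against the majority. It was at 1.86 and 1.84 in KD IRI, 1.62 and 1.54 in WT IRI, 2.72 and 2.46 in KD normal, and 2.07 and 1.91 in WT normal kidneys. Both injured groups lay below both uninjured ones. It fell by 0.74 ± 0.11 with injury in KD (adjusted p = 0.00101) and by 0.41 in WT (adjusted p = 0.0181). The WT fall did not pass without WT normal replicate 1 or WT IRI replicate 2, where its adjusted p reached 0.119.

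The 15 large-subunit members held 14 that rose in KD injury and 13 in WT injury, with 0 lower in limma's test and at an unadjusted p under 0.05. Noc3l, which acts in early large-subunit particles, was at -1.34 and -1.25 in KD IRI, -2.18 and -1.99 in WT IRI, -1.80 and -2.37 in KD normal, and -3.15 and -3.14 in WT normal kidneys. Uninjured KD kidneys spanned the WT IRI range. It rose by 0.79 ± 0.19 in KD (adjusted p = 0.01) and 1.06 in WT (adjusted p = 0.00429), and the KD call was lost without KD IRI replicate 2 (adjusted p = 0.058) and with normexp background correction (0.42, adjusted p = 0.372). Rrp15 was at 2.02 and 2.08 in KD IRI, 1.50 and 1.50 in WT IRI, 1.12 and 0.91 in KD normal, and 0.70 and 0.74 in WT normal kidneys. It rose by 1.03 ± 0.09 in KD and 0.78 in WT (adjusted p = 0.000753). Gnl3, the nucleolar GTPase nucleostemin, was at 1.05 and 1.03 in KD IRI, 0.54 and 0.36 in WT IRI, 0.74 and 0.29 in KD normal, and -0.31 and -0.26 in WT normal kidneys. It rose by 0.52 ± 0.15 in KD (adjusted p = 0.0199) and 0.73 in WT (adjusted p = 0.00708), and the KD call was lost without either KD IRI array or without KD normal replicate 2.

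Ppan, the mammalian relative of a large-subunit factor named Peter Pan in the fly, was at 3.50 and 3.70 in KD IRI, 2.39 and 2.27 in WT IRI, 2.53 and 2.10 in KD normal, and 1.59 and 1.66 in WT normal kidneys. The KD IRI arrays stood well above the other 6. Ppan rose by 1.29 ± 0.15 in KD (adjusted p = 0.000345) and 0.71 in WT (adjusted p = 0.00779). Nop2, a methyltransferase of large-subunit RNA, was at 3.49 and 3.61 in KD IRI, 2.84 and 2.79 in WT IRI, 2.87 and 2.51 in KD normal, and 2.07 and 2.12 in WT normal kidneys. It rose by 0.86 in KD and 0.72 in WT. Noc2l, a partner of Noc3l, was at 3.11 and 3.23 in KD IRI, 2.63 and 2.80 in WT IRI, 2.10 and 2.01 in KD normal, and 1.98 and 2.00 in WT normal kidneys. It rose by 1.12 in KD and 0.72 in WT, and its uninjured groups lay close together.

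The PeBoW complex of Pes1, Bop1 and Wdr12, which is needed to process large-subunit RNA, had 3 of 3 members called higher in both genotypes. Their changes were 0.54, 0.71 and 0.61 in KD and 0.36, 0.52 and 0.49 in WT. A second probe of Pes1 gave -0.13 in KD (adjusted p = 0.428 over all probes) and 0.53 in WT (adjusted p = 0.0179), so the KD direction of Pes1 depends on the probe. Bop1 was at 2.54 and 2.54 in KD IRI, 2.13 and 2.20 in WT IRI, 1.83 and 1.84 in KD normal, and 1.60 and 1.70 in WT normal kidneys. Wdr12 was at 0.71 and 0.72 in KD IRI, 0.21 and 0.36 in WT IRI, 0.15 and 0.04 in KD normal, and -0.21 and -0.20 in WT normal kidneys. For both, all injured arrays lay above all uninjured arrays. Rrp1b rose by 1.07 in KD and 0.48 in WT, while its relative Rrp1 had changes of 0.01 and -0.02. Rrp1 was at 3.20 and 2.87 in KD IRI, 3.09 and 2.95 in WT IRI, 3.06 and 2.99 in KD normal, and 3.13 and 2.96 in WT normal kidneys, with overlap between all groups. Rrp8, a methyltransferase of large-subunit RNA in yeast, was at 0.47 and 0.59 in KD IRI, -0.04 and 0.03 in WT IRI, 0.01 and -0.28 in KD normal, and -0.34 and -0.35 in WT normal kidneys, and it rose by 0.66 in KD and 0.34 in WT. Nop16 was at 2.08 and 2.03 in KD IRI, 1.53 and 1.70 in WT IRI, 1.77 and 1.76 in KD normal, and 1.30 and 1.37 in WT normal kidneys, and it rose by 0.29 in KD and 0.28 in WT. Both KD normal arrays of Nop16 lay above both WT IRI arrays. Its second probe gave -0.17 in KD (adjusted p = 0.512 over all probes) and 0.28 in WT (adjusted p = 0.3). Rrs1 rose by 0.42 in KD and 0.36 in WT. Brix1 rose by 0.35 in KD, and its WT change was 0.26 (adjusted p = 0.0709). The direction of Brix1 in KD depends on the probe, as a second one gave -0.34 (adjusted p = 0.0962 over all probes).

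The 3 nucleolar proteins with several roles all rose in both genotypes. Ncl, which encodes nucleolin, was at 5.93 and 5.85 in KD IRI, 5.57 and 5.55 in WT IRI, 4.90 and 4.69 in KD normal, and 5.05 and 4.94 in WT normal kidneys. It rose by 1.09 ± 0.09 in KD (adjusted p = 9.4e-05) and 0.56 in WT (adjusted p = 0.00287). Npm1, the histone and ribosome chaperone nucleophosmin, was at 5.44 and 5.25 in KD IRI, 4.93 and 5.06 in WT IRI, 4.42 and 4.26 in KD normal, and 4.35 and 4.29 in WT normal kidneys. It rose by 1.00 in KD and 0.68 in WT. Nolc1, a chaperone of snoRNPs, was at 2.28 and 2.11 in KD IRI, 1.43 and 1.22 in WT IRI, 1.47 and 1.05 in KD normal, and 0.74 and 0.62 in WT normal kidneys. It rose by 0.93 in KD (adjusted p = 0.0018) and 0.64 in WT (adjusted p = 0.0134). A second probe of Nolc1 gave -0.03 in KD and 0.09 in WT (adjusted p = 0.871 and 0.651 over all probes), so these rises belong to 1 probe.

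Leaving out each array in turn kept 35 of the 43 KD injury calls and 27 of the 37 WT injury calls under all 8 omissions. The KD calls lost under at least 1 omission were those of Brix1, Gnl3, Noc3l, Nop10, Nop14, Nop16, Rrs1 and Utp3. The WT calls so lost were those of Nolc1, Nop16, Pes1, Polr1b, Rrp1b, Rrp8, Rrs1, Utp18, Utp20 and Wdr43. With normexp background correction in place of the scanner's own correction, 36 of the 43 KD calls passed, and those of Nat10, Noc3l, Nop10, Nop14, Utp14a, Utp15 and Utp23 did not. In WT 17 of the 37 calls passed (16 higher and 1 lower), and those of Fbl, Nhp2, Bysl, Nat10, Nop9, Nop14, Utp18, Utp23, Wdr43, Wdr75, Pes1, Bop1, Wdr12, Nop16, Rrp1b, Rrp8, Rrs1, Ncl, Npm1 and Polr1b did not. Quantile normalization lost the WT calls of Polr1b, Rrp8 and Wdr43. With the mean of a gene's probes, 39 of the 43 KD calls passed, and those of Brix1, Nop16, Pes1 and Utp6 did not, while 34 of the 37 WT calls passed, and those of Nolc1, Nop16 and Utp6 did not.

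Keap1 knockdown without injury, KD normal against WT normal, asked whether these genes differed between the genotypes before injury. The test passed 18 members as higher, where 6.4% of all genes were, and 0 as lower, where 8.78% of all genes were, with 15.2% of all genes changed in either direction. At an unadjusted p under 0.05, 28 were higher and 1 lower. The median difference was 0.29, beside -0.03 for all genes, and it was 0.36 within slide 1 and 0.24 within slide 2. The KD normal arrays lay above both WT normal arrays for 33 members, against 29.9% of all genes, and below them for Dkc1, Ncl and Utp15, against 34.5%. The second probe of Dkc1 had overlapping groups here, at -2.51 and -2.72 in KD normal and -2.41 and -2.68 in WT normal kidneys. No dividing-cell marker passed as higher and 4 of 9 passed as lower (Aurkb, Ccnb1, Mki67 and Top2a). The neutrophil sum differed between the KD normal arrays, at 0.779 and 6.23.

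The largest genotype differences without injury were in Noc3l, Rrp12, Gnl3 and Ppan, whose levels are given above. Noc3l was 2.08-fold higher in KD normal than in WT normal kidneys (log2 difference 1.06 ± 0.19, adjusted p = 0.0168). Rrp12 was 1.82-fold higher (0.87 ± 0.11, adjusted p = 0.00784), Gnl3 1.74-fold (0.80, adjusted p = 0.0186) and Ppan 1.61-fold (0.69, adjusted p = 0.0265). Utp20, lower after injury, was also higher in KD (0.59 ± 0.11, adjusted p = 0.0168). Nop58 differed by 0.59 and missed the threshold (adjusted p = 0.0521).

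Smaller differences that passed were those of Nop2 and Nolc1 at 0.59 and 0.58, Utp4, Heatr1 and Polr1a at 0.52 each, and Nhp2 and Gar1 at 0.51 each (adjusted p between 0.00828 and 0.0481). Nop14, Bysl, Nop16, Wdr75, Utp6 and Utp18 differed by 0.34 to 0.49. For each of the 18 the KD normal arrays lay above both WT normal arrays. A second probe of Utp6 differed by -0.02 and a second probe of Nop14 by -0.15, so the differences of these genes belong to 1 probe each.

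Every call of this comparison depended on the arrays kept. Without WT normal replicate 1 or without WT normal replicate 2 the count was 0, with 19 and 23 members higher at an unadjusted p under 0.05 and lowest adjusted p-values of 0.0614 and 0.0532. It was 8 without KD normal replicate 1, 14 without KD normal replicate 2, 12 without either KD IRI array, and 19 without either WT IRI array. The median difference stayed between 0.26 and 0.31 under these omissions. Each omission that lowered the count of members also lowered the number of all genes called higher, so the members were not alone in losing calls. With normexp background correction the count was 5, those of Gnl3, Heatr1, Nolc1, Ppan and Rrp12. A fit that leaves 1 array in a group takes that array to vary like the other groups.

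The genotypes were compared again after injury, KD IRI against WT IRI. The members higher in KD numbered 22, where 3.69% of all genes were, and those lower 0, where 3.42% of all genes were, with 7.11% of all genes changed in either direction. At an unadjusted p under 0.05 there were 40 higher and 0 lower. The median difference was 0.43, beside -0.04 for all genes, with 0.47 within slide 1 and 0.41 within slide 2. The KD IRI arrays lay above both WT IRI arrays for 43 members, against 25.7% of all genes. Of the 9 dividing-cell markers 3 passed as higher (Mcm2, Pcna and Top2a), and at an unadjusted p under 0.05 all 9 did. Their part in the members' difference was not tested. No neutrophil marker passed in limma's test or at an unadjusted p under 0.05.

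Ppan differed most, 2.41-fold higher in KD IRI than in WT IRI kidneys (log2 difference 1.27 ± 0.15, adjusted p = 0.0107). Nop58 was 1.96-fold higher (0.97 ± 0.16, adjusted p = 0.0228) and Nolc1 1.82-fold (0.87, adjusted p = 0.0255). Nop2 followed at 0.74, then Wdr43 and Utp4 at 0.62 each, Polr1b and Bysl at 0.57, Rrp15 at 0.55, Fbl at 0.54 and Rrp8 at 0.53. Wdr43 was at 0.42 and 0.61 in KD IRI, -0.07 and -0.14 in WT IRI, -0.34 and -0.38 in KD normal, and -0.34 and -0.46 in WT normal kidneys, so its injured groups stood apart and its uninjured groups overlapped. Rrp9, Gar1, Rrp12 and Nhp2 differed by 0.49 to 0.52, and Noc2l, Nop16, Wdr75, Wdr12, Utp6, Utp18 and Bop1 by 0.38 to 0.46.

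For each of the 22 the KD IRI arrays lay above both WT IRI arrays. Noc3l and Dkc1 differed by 0.79 each and missed the threshold (SE 0.19 and 0.27, adjusted p = 0.0556 and 0.125). The second probe of Dkc1, with 0.78, passed (adjusted p = 0.0427 over all probes).

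The count of 22 also moved with the arrays kept. It was 1 when only the 4 injured arrays entered the fit, 1 without WT normal replicate 1, without WT normal replicate 2 or without KD IRI replicate 1, and 0 without KD IRI replicate 2 (34 higher at an unadjusted p under 0.05, lowest adjusted p = 0.0896). It was 11 without WT IRI replicate 1, 17 without WT IRI replicate 2, and 24 without either KD normal array. The median difference was 0.38 to 0.46 under the same omissions, and 43 to 46 of the 46 differences were positive. Of all 20581 genes, 33 passed as higher with only the injured arrays in the fit, against 759 with all arrays. Each omission that lowered the count of members also lowered the number of all genes called higher. With normexp background correction 13 of the 22 calls passed, and those of Bop1, Polr1b, Rrp12, Rrp8, Rrp9, Utp18, Utp6, Wdr12 and Wdr75 did not. With the mean of a gene's probes 19 passed, and those of Bysl, Nop16 and Utp6 did not.

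The 2 genotype comparisons contrast different arrays but share each gene's estimate of spread over all 8 arrays, so their calls are not independent. Both passed the same 12 members as higher: Bysl, Gar1, Nhp2, Nolc1, Nop16, Nop2, Ppan, Rrp12, Utp18, Utp4, Utp6 and Wdr75. They were 12 of the 22 calls with injury and 12 of the 18 without it, and 0.967% of all genes passed as higher in both. The genotype difference was positive in both for 38 of the 46 members, and for 4915 of all 20581 genes. Across the 46 members the 2 differences had a Pearson r of 0.382, and across all genes 0.064. The points come from the same 8 arrays and genes on an array share its errors, so these values are descriptions without a test.

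**Figure D4:**
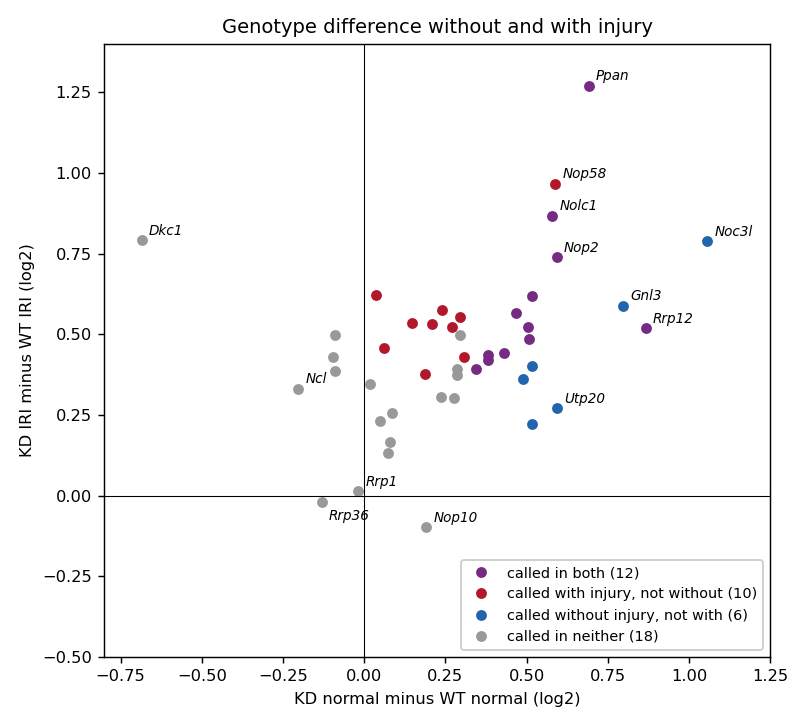
Log2 difference between KD and WT for each of 46 members, without injury (horizontal axis) and with it (vertical axis), coloured by which comparison passed the threshold. The 12 members that passed in both lie to the upper right with Ppan at the top, and Dkc1 lies apart at 0.79 with injury and -0.68 without it. A second probe of Dkc1, not drawn, had uninjured groups that overlapped.

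Whether injury acted differently in the 2 genotypes was tested as an interaction, the KD injury change minus the WT injury change. No member passed in limma's test, where 3.79% of all genes passed as higher and 2.81% as lower, 6.6% in either direction. At an unadjusted p under 0.05, 9 members had a higher and 1 a lower injury change in KD. Of 25 other probes of the members, 15 had the same sign as the probe used. Probes of opposite sign belonged to Brix1, Bysl, Nolc1, Nop14, Nop16, Pes1, Utp23, Utp4 and Wdr12. The median member difference was 0.11, with 0.10 within slide 1 and 0.17 within slide 2. Ncl came nearest (0.53 ± 0.13, adjusted p = 0.0575). Of its 3 other probes, 1 passed over all probes (0.51, adjusted p = 0.0471) and the other two gave 0.32 and 0.44 (adjusted p = 0.157 and 0.153). With the slide, which here equals the replicate number, as a block Ncl passed (adjusted p = 0.0363). Wdr43 was next (0.58 ± 0.14, adjusted p = 0.0581), then Dkc1 (1.48 ± 0.39, adjusted p = 0.0717) and Fbl (0.39 ± 0.11, adjusted p = 0.0803). The size for Dkc1 depends on the probe: the WT normal arrays of the probe used lay far apart, and the second probe gave a smaller difference. A p that misses the threshold does not show that the genotypes responded alike: for Ppan the difference was 0.58 ± 0.21.

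The cytosolic ribosomal proteins, the products that these factors assemble, were measured for 78 genes. They have many near-identical copies in the genome, so single genes among them are uncertain. With injury 63 rose and 1 fell in KD (median 0.41), and 48 rose and 2 fell in WT (median 0.27). These counts depended on the scaling of the arrays: with quantile normalization 76 rose and 0 fell in each genotype (medians 0.82 in KD and 0.67 in WT), and with normexp background correction 27 rose in KD and 3 in WT (medians 0.55 and 0.11). Rpl14 and Rpl12 had the largest rises in WT, at 1.11 and 0.94, and Rpl11 fell there by 0.26. Between genotypes, limma's test passed 0 of 78 in either comparison, and with quantile normalization 1 higher and 1 lower without injury. At an unadjusted p under 0.05, 13 were higher and 0 lower with injury, and 2 were higher and 4 lower without it. The median genotype difference of the ribosomal proteins was 0.11 with injury and -0.03 without it, beside 0.43 and 0.29 for the biogenesis factors. Both WT normal arrays were the lowest of the 8 for 11 of 78, against 31 of 46 biogenesis factors and 12.2% of all genes. Both KD IRI arrays were the highest of the 8 for 49 of 78, against 42 of 46 and 18% of all genes. The KD IRI arrays lay above both WT IRI arrays for 50 of 78, against 43 of 46 and 25.7% of all genes. The difference between the 2 lists was not tested.

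Other genes of the pathway were listed by role. Of all genes tested, 27.5% rose and 31.8% fell in KD injury, and 20.6% rose and 25.2% fell in WT injury. Higher in KD than in WT were 3.69% with injury and 6.4% without it. The median genotype difference of the other small-subunit factors was 0.29 with injury and 0.20 without it. For the other large-subunit factors it was 0.34 and 0.12, beside 0.43 and 0.29 for the 46 ribosome biogenesis genes. Of 37 other small-subunit factors 19 rose and 2 fell in KD injury and 17 rose in WT injury, and 7 and 6 were higher in KD than in WT with and without injury. Ddx10, a helicase, and Dimt1, a dimethyltransferase of small-subunit RNA, had the largest WT rises at 0.72 and 0.67. Of 42 other large-subunit factors 28 rose and 1 fell in KD injury, and 20 rose and 1 fell in WT injury, while 13 and 6 were higher in KD with and without injury. In WT injury Ddx21, a nucleolar helicase, rose by 1.32 and Eif6, which keeps the large subunit from joining too early, by 1.26. Mdn1, the giant ATPase that strips factors off large-subunit particles, had a change of -0.05 in KD injury and fell by 0.79 in WT injury (interaction 0.74 ± 0.15, adjusted p = 0.0401, a call lost without either WT normal array, among other omissions).

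Of 10 measured genes of the RNA polymerase I machinery, 4 rose and 1 fell in KD injury, and 2 rose in WT injury, the initiation factor Rrn3 by 0.49 and the subunit Polr1e by 0.35. The WT rises were 20% of this list, near the 20.6% of all genes, and its median WT change was 0.11. Of 10 snoRNP assembly genes 8 rose and 1 fell in KD, and 4 rose in WT, with Ruvbl2 and Shq1 at 0.66 and 0.63. Of 22 genes of the nuclear exosome and of RNase MRP, which trim and cut the precursor, 14 rose and 4 fell in KD, and 10 rose and 4 fell in WT. Exosc8 rose by 1.07 in WT, while the exosome helicase Mtrex fell by 0.78 and its cofactor C1d by 0.60. Rpp25 was not well above background on any uninjured array and was at least 11-fold higher in KD IRI than in KD normal kidneys (adjusted p = 2.8e-05) and at least 4.26-fold higher in WT IRI than in WT normal kidneys (adjusted p = 0.000373). Such a bound sets the injured mean against the higher of the gene's own signal and the lowest signal well above background on each uninjured array.

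**Figure D5:**
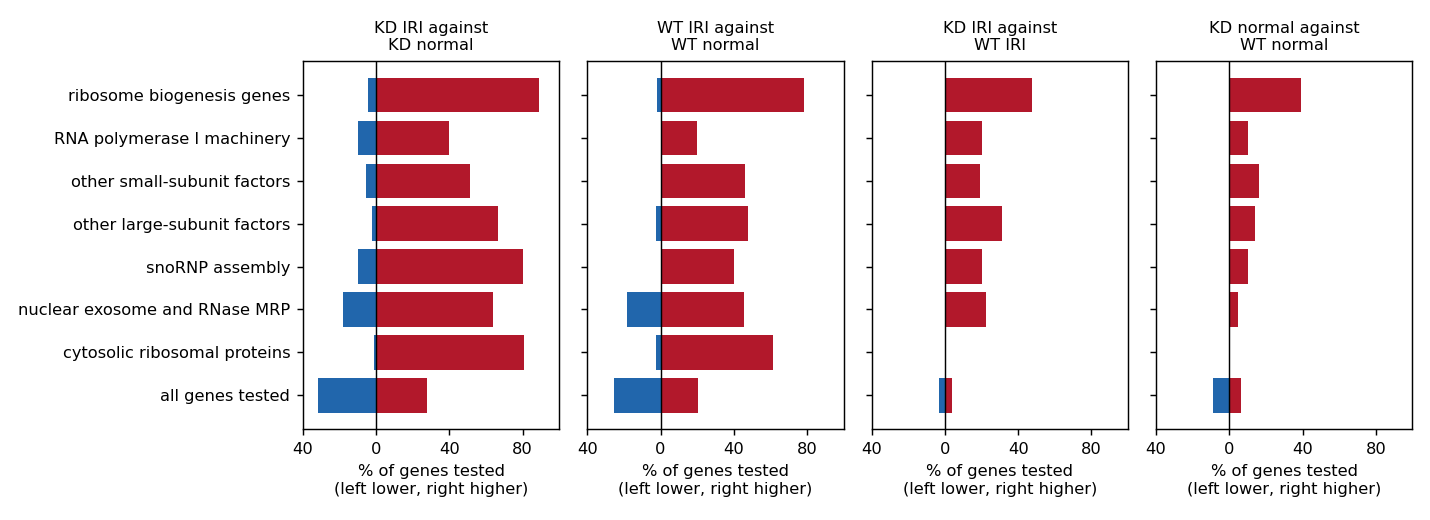
Percent of genes in each list that passed the threshold as higher (right of 0) or lower (left of 0) in 4 comparisons, by limma's moderated test adjusted over 20581 genes. The 46 ribosome biogenesis genes have 89.1% higher in KD injury, 78.3% in WT injury, 47.8% in KD IRI against WT IRI and 39.1% in KD normal against WT normal, beside 27.5%, 20.6%, 3.69% and 6.4% of all genes tested.

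Of the 10 measured genes of the MYC network, which includes MYC, its partner MAX and their competitors, Myc had the clearest change. Myc was at 0.75 and 0.99 in KD IRI, -0.49 and -0.15 in WT IRI, -2.12 and -1.63 in KD normal, and -2.49 and -2.52 in WT normal kidneys. The 4 groups did not overlap, and their means had the order shown by 32 of the 46 members and by 10.6% of all genes. A link between Myc and the members was not tested. Myc rose by 2.74 ± 0.19 with injury in KD (adjusted p = 4.9e-05) and by 2.18 in WT (adjusted p = 0.000274). It was higher in KD than in WT after injury (1.19, adjusted p = 0.0207), and without injury the difference was 0.63 (adjusted p = 0.0667).

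Mxd3, a repressor of the same network, was well above background on all 4 injured arrays and on 1 of the 4 uninjured ones. It was at -1.43 and -0.83 in KD IRI and -1.77 and -2.94 in WT IRI kidneys. It was at least 20.6-fold higher in KD IRI than in KD normal kidneys (adjusted p = 0.000401). Only 1 of the 2 WT normal arrays measured it, so no WT difference is given. Mlx and Mga fell in both genotypes, by 0.88 and 0.41 in KD and by 0.52 and 0.43 in WT, and Mxd1 and Mxd4 fell in KD by 0.59 and 0.71. Max, Mnt, Mycl and Mycn passed in no comparison. Max had changes of -0.08 in KD injury and -0.11 in WT injury.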

How the data were processed

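RNA of whole left kidneys was labelled with Cy3 and hybridised to 8 one-colour Agilent arrays, 2 in each of 4 groups, with 300 ng of RNA an array per the labels. The authors deposited the scanner output of Agilent Feature Extraction 10.7.3.1, whose values are background-corrected spot intensity, per the file headers. They also deposited a table of log2 values whose scaling is not stated. That table correlated with the values below, centred on each probe's median, at 0.998258 to 0.999949 per array, with column medians of -0.136 to 0.158.

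Each array's log2 processed signal was set relative to its 75th percentile over non-control spots (1039.6 to 1340.5 intensity units). Of 41174 probes, 27409 were kept, those that stood well above background throughout 1 group or more, and the brightest probe stood for a gene. Probes were named through RefSeq accessions (26690 probes), and 14107 of 20581 genes had a symbol. Of 74 probes of the members, 71 were kept, and all 46 probes used were well above background on all 8 arrays. Group means were fitted over all arrays with limma 3.58.1 in R 4.3.3, with an intensity trend (4 residual degrees of freedom), and p-values were adjusted by Benjamini-Hochberg over 20581 genes with a threshold of 0.05. Promoter letters were read with Python 3.11.15. The scripts were tested on simulated data.

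Slide 1 held the replicate numbered 1 of every group and slide 2 the replicate numbered 2, per the file headers, so the number marks a shared slide. Deviations of same-numbered arrays correlated at 0.0216 to 0.262 between groups. The number of arrays limits the precision. Members, lists and tests were chosen with earlier results of these data known. The genes named by rule are the 47 members, Keap1, the MYC network, the markers, and the 2 largest rises and 2 largest falls of each other list in WT injury, except 1 ribosomal protein gene that is not reported here. Nle1, Dis3, Exosc2 and Mphosph6 were named for their values. Members given on every array are, within a role, the 3 with the largest WT injury change among those that passed, those that differed between genotypes, and those that moved against the majority. Alternatives were normexp background correction (offset 50, on the median spot signal), quantile normalization, the deposited table, other filters on dim probes, the mean of a gene's probes, fewer arrays in the fit, a slide or replicate block, and leaving out each array.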

Additional observations from a re-analysis of the deposited data

Results flagged for a closer look

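The injury response of the 9 measured markers of dividing cells differed between genotypes: limma's interaction test passed 8 of 9 as a larger rise in KD than in WT kidneys, all but Mcm5. It passed 3.79% of all genes as higher. The interaction holds the uninjured difference as well as the injured one. Without injury the median difference of KD from WT was -1.08, and 4 of 9 passed as lower. After injury it was 1.21, and 3 of 9 passed as higher. Top2a was not well above background on either KD normal array. The count of 8 depended on the arrays kept: it was 0 without KD IRI replicate 2 or without either WT normal array, with 8 or 9 higher at an unadjusted p under 0.05. It was 1 without KD IRI replicate 1 or KD normal replicate 2, 4 without KD normal replicate 1, 8 without WT IRI replicate 1 and 7 without WT IRI replicate 2. Beside them, 0 of 46 ribosome biogenesis factors passed, with 9 higher and 1 lower at an unadjusted p under 0.05.

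Among the other genes of the pathway, 6 had an injury response that was higher in KD than in WT by the same test. The small-subunit, RNA polymerase I, snoRNP assembly and ribosomal protein lists had 0. The exosome and RNase MRP list held 4 of 22 (18.2%) and the large-subunit factors 2 of 42 (4.76%), beside 3.79% of all genes. In both lists limma's test passed 0 without either KD IRI array, KD normal replicate 2, WT IRI replicate 2 or either WT normal array, with 5 to 10 and 4 to 8 higher at an unadjusted p under 0.05. The lists had 2 and 2 without KD normal replicate 1, and 3 and 1 without WT IRI replicate 1. Mdn1 differed by 0.74 (adjusted p = 0.0401). It was at 1.15 and 1.12 in KD IRI, 0.63 and 0.48 in WT IRI, 1.27 and 1.10 in KD normal, and 1.25 and 1.45 in WT normal kidneys, so that the injured WT arrays alone stood low. Nle1, Dis3, Exosc2 and Mphosph6 were named after their values were seen. Nle1, a large-subunit factor, differed by 0.58 (adjusted p = 0.0445), and its uninjured groups overlapped, at -1.50 and -1.39 in KD and -1.45 and -1.39 in WT.

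The remaining 4 belong to the exosome and RNase MRP list. Dis3, a catalytic exosome subunit, differed by 0.52 (adjusted p = 0.0429) and was at 1.02 and 0.95 in KD IRI, 0.23 and 0.27 in WT IRI, -0.43 and -0.39 in KD normal, and -0.63 and -0.60 in WT normal kidneys. Exosc2, a cap subunit of the exosome, differed by 0.54 (adjusted p = 0.0364), and Mphosph6, an exosome cofactor, by 0.56 (adjusted p = 0.0457). Rpp25, a subunit of RNase P and RNase MRP, had a fitted difference of 1.53 (adjusted p = 0.0351), but none of its 4 uninjured arrays was well above background, so this is not a measured difference.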

How the results depend on the processing

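Of 3634 member values recomputed under the alternatives, 337 calls were lost and 44 gained, and 1 called value changed sign and missed the threshold: Utp15 in KD injury was -0.096 with normexp background correction. Normexp gave 36 KD injury and 17 WT injury calls (WT median 0.43), 5 calls for KD normal against WT normal, and 2 interaction calls (Noc2l and Ppan, median 0.22). It also moved the median of all genes to -0.34 in KD injury, 0.20 in WT injury and -0.31 in the interaction, against -0.08, -0.08 and -0.00 with the scanner's correction. The interaction count was 2 with quantile normalization (Fbl and Ncl), 1 with the mean of all probes (Ncl) and 1 with the replicate block (Ncl). The replicate block, the same as the slide block, left 22 and 18 calls between genotypes with and without injury and 43 in KD injury, and gave 36 in WT injury, where Rrp8 and Wdr43 were lost. It lost Rrp8 after injury between genotypes. With the injured arrays alone, KD IRI against WT IRI gave 1 call, where 33 of 20581 genes passed as higher.

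Leaving out each array in turn gave 35 to 43 calls in KD injury and 29 to 36 in WT injury. It gave 0 to 24 between genotypes with injury (median 0.38 to 0.46), 0 to 19 without it, and 0 to 2 in the interaction (median 0.073 to 0.18). The interaction needs all groups, so no fit with fewer groups was made for it. The fit takes each gene's spread from all groups together, so leaving out any array changes the test of every comparison. The counts of genotype calls changed most under these omissions. The cause was not tested.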

Other observations

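The remaining cell type markers were counted in the same comparisons, and their part in the changes of the ribosome biogenesis factors was not tested. The 8 measured markers of monocytes and macrophages had 6 higher and 1 lower in KD injury and 7 higher and 1 lower in WT injury, and their summed scaled signal was 81.8 and 95.0 in KD IRI, 84.2 and 106.3 in WT IRI, 68.8 and 67.6 in KD normal, and 64.6 and 60.0 in WT normal kidneys. Between genotypes, limma's test passed 0 after injury, with 2 higher and 0 lower at an unadjusted p under 0.05, and 1 as higher without injury. The 7 measured lymphocyte markers summed to 0.402 and 0.444 in KD IRI, 0.516 and 0.306 in WT IRI, 0.430 and 0.269 in KD normal, and 0.740 and 0.839 in WT normal kidneys. Of them 2 were higher and 1 lower in KD injury, 3 lower in WT injury, and 2 lower in KD normal than in WT normal kidneys. The 9 kidney markers had 1 lower in KD IRI against WT IRI, and 1 higher and 1 lower in KD normal against WT normal.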
